A study of Mus musculus with 63 samples.

Results

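The genes described here are the members of a numbered stretch of the mouse zinc finger family: every row of the deposited heart count table whose symbol is Zfp followed by a number from 600 to 999. They make up 133 of the 19220 genes of the table. The symbols are those of the table, and 25 further rows that GENCODE M21 names in this range stand in it under other symbols and are not members. The hearts came from 63 mice of the 8 founder strains of the Diversity Outbred population, with 7 mice of the strain labelled Cast and 8 each of those labelled 129, AJ, B6, NOD, NZO, PWK and WSB. All groups were on a diet high in fat and sugar, with 45% fat, and no group on another diet was analysed here. The labels give neither sex nor age. The reference genome GRCm38 was built from B6, Cast and PWK descend from wild mice of other subspecies, and WSB is wild-derived as well. A library is called by its strain and number (WSB_1). Each was taken as 1 mouse, and since nothing beyond the identifiers says that the mice were separate, p-values measure the spread between these libraries.

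Proteins of this family bind DNA through a row of C2H2 zinc fingers, each a short loop held by a zinc ion, and the order of fingers sets the sequence that is bound. Many also carry a KRAB domain, which recruits the corepressor TRIM28. TRIM28 in turn brings the histone methyltransferase SETDB1 and heterochromatin proteins, and so silences the bound DNA, which is often a retrotransposon. Genes of this kind arose by repeated duplication, lie in clusters, and are known to differ in copy number and sequence between mouse strains.

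The members fell into a class that matched a KRAB pattern and a smaller class that did not. Of the 133 genes, 131 are annotated as protein coding in GENCODE M21 and 2 (Zfp783 and Zfp939) as pseudogenes. A KRAB pattern was found in the translated coding sequence of 85 members and not in 46. A missing match to this pattern does not show that the domain is absent. The C2H2 finger pattern was matched a median of 12 times in the KRAB class and 7 times in the other, with 33 matches in Zfp619 as the highest count and none in 5 members. Chromosome 7 held 31 members, chromosome 17 held 19, chromosome 8 held 16 and chromosome 13 held 10. Where successive members within 1 Mb were joined and at least 3 were required, 71 members fell into 14 clusters, named here by chromosome and a letter. The clusters held 56 of the 85 members with a KRAB match and 14 of the 46 without.

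Zfp738, Zfp605 and Zfp945 each had no counts, or their lowest counts in every library, in a single strain. The sequences in front of these genes are shown as examples. They are B6 reference sequence from RefSeq (GRCm38.p6), from 250 to 51 bases before a transcript start and written 5′ to 3′ along the gene's strand. The capitals mark CCAAT or GGGCGG, searched with TATAAA on both strands. The other strains' sequences at these sites were not analysed here. Zfp607, Zfp651, Zfp691 and Zfp960 were also lowest in every library of a single strain, and their sequences are not shown.

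Zfp738, chr13:67683563-67683762, minus strand: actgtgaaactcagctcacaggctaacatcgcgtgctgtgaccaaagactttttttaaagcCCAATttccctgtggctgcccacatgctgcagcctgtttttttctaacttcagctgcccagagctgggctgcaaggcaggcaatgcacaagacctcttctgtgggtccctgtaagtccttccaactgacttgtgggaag
Zfp605, chr5:110109842-110110041, plus strand: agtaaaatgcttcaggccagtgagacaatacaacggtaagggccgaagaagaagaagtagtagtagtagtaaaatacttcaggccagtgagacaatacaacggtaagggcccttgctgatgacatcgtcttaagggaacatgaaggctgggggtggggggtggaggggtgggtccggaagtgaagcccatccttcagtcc
Zfp945, chr17:22867185-22867384, minus strand: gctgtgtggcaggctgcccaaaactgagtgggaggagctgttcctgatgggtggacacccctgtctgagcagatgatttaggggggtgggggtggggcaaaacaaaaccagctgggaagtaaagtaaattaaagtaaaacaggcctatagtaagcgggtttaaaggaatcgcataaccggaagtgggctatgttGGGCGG

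The Zfp738 window holds 1 CCAAT, the Zfp945 window 1 GGGCGG, and the Zfp605 window none of the 3 motifs. The RefSeq start used for Zfp738 lies inside the deposited span of the gene. RefSeq windows matched 113 of the 133 members, with 141 windows in all. Among these, 41.1% held CCAAT, 30.5% GGGCGG and 6.38% TATAAA, against 28.4%, 24.6% and 9.14% of all 32841 windows of the same length. The median number of CG pairs was 7 in the members' windows and 4 in all. These are descriptions of letters in a window, and no test was made of them.

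Libraries held 21.8 M to 42.9 M estimated counts (median 30.4 M), and the members together took 0.133% to 0.178% of them. Every library was closest to the other libraries of its own strain, over all genes and over the members alone (63 of 63). WSB_1 stood apart, with a root mean square deviation from its strain of 0.84 log2 units, while that of the other 62 libraries was at most 0.528. Heart muscle genes were high throughout (8 of 8 markers measured, 40620 to 83880 CPM summed per library). Markers of fibroblasts summed to between 464 and 1881 CPM, of endothelium to between 507 and 1034, of leukocytes to between 35.1 and 229 and of adipocytes to between 0.515 and 85. Those of atrial muscle summed to between 432 and 2201 CPM and those of red cells to between 292 and 4044. Their part in the results below was not tested. In bulk tissue, fewer cells of a type and less RNA per cell cannot be told apart.

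Most members were expressed at a modest level and differed between strains by modest amounts. Of the 133, 131 passed the filter on low counts, and Zfp600 and Zfp957 (0.0578 and 0.0663 CPM on average) did not. By edgeR's quasi-likelihood test with Benjamini-Hochberg adjustment over all tested genes, 126 of 131 members differed among the 8 strains (96.2%), against 89.4% of all 16425 genes tested. The range of the strain means was 1 log2 unit or more in 38 members (29%), against 37.9% of all genes, and 2 log2 units or more in 16 (12.2%), against 14.7%. The median range of strain means was 0.69 log2 CPM in the members, 0.62 in the 208 other tested genes with a Zfp symbol, and 0.78 over all genes. The share that differed was above the background and both shares with a wide range were below it. At 2 log2 units the gap was small, and none of these gaps was tested. These shares hold for the members by deposited symbol only. Of the 24 tested genes of this number range that stand under other symbols, 20 had a range of at least 1 log2 unit and 15 of at least 2. They are not counted in these shares. The median adjusted R2 for strain, the part of a gene's variance that strain accounts for, was 0.449 in the members and 0.443 over all genes.

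The widest differences were those of genes with no counts, or almost none, in 1 strain. The deposited counts are estimates, given here after rounding. Before rounding they summed to 8.18e-112 for Zfp738 over the WSB libraries and 5.36e-225 for Zfp605 over the PWK libraries. Whether the reads of these strains carry variants that kept them from being assigned to the gene was not tested. Whether reads were allocated to other genes instead was not tested either, so a count of 0 is not a measure of absent RNA. Zfp738, a KRAB gene of cluster chr13b with 20 finger matches (chromosome 13, 67667437 to 67687071), had no count in any of the 8 WSB libraries. In B6 it ran from 5.26 to 8.35 CPM (median 6.96), in Cast from 4.02 to 7.0 (median 5.61), in 129 from 4.6 to 7.18 (median 5.63) and in AJ from 4.47 to 6.67 (median 5.68). In NOD it ran from 4.3 to 6.46 CPM (median 5.42), in NZO from 4.13 to 6.84 (median 5.09) and in PWK from 2.2 to 4.23 (median 3.44). No library of another strain came near the WSB level. Against the floor of 3 counts over the 8 WSB libraries (0.0128 CPM), its WSB level was at least 425-fold lower than the average elsewhere. PWK was the next lowest, 0.67 log2 units below NZO (SE 0.12, edgeR adjusted p = 8.705e-06), and B6, the highest, lay 0.29 above Cast (SE 0.13, adjusted p = 0.04411). No difference was found between neighbours in the run from Cast through 129, AJ and NOD to NZO (adjusted p of at least 0.7303).

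Zfp605, a KRAB gene with 12 finger matches on chromosome 5 (110110092 to 110129794), had no counts in PWK and was highest in Cast. All 8 PWK libraries had 0 counts, so that PWK was at least 286-fold lower than the average elsewhere at a floor of 3 counts (0.0108 CPM). Cast ran from 4.38 to 7.66 CPM (median 5.41), above every library of the other strains. WSB ran from 2.56 to 4.1 CPM (median 3.03), B6 from 2.76 to 3.16 (median 3.0), 129 from 1.91 to 3.25 (median 2.73), NOD from 2.32 to 3.15 (median 2.58), AJ from 2.15 to 2.9 (median 2.53) and NZO from 1.44 to 2.54 (median 2.02). Cast exceeded WSB by 0.84 log2 units (SE 0.11, edgeR adjusted p = 8.749e-09), and WSB, B6, 129, NOD and AJ formed a run in which no neighbours differed. The 2 wild-derived strains of other subspecies thus stood at opposite ends of the order for this gene.

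Zfp607, a KRAB gene of cluster chr7c with 18 finger matches (chromosome 7, 27857527 to 27880825), had almost no counts in NZO. The estimated counts summed to 1.01 over the 8 NZO libraries, taken as 1 count, against strain means of 3.51 to 3.93 CPM elsewhere. The ratio of the other strains' mean to NZO was 911 (95% exact Poisson interval 163 to 36000). The other 7 strains overlapped, with medians from 3.41 CPM in 129 to 3.91 CPM in WSB. Zfp607b, a near-identical copy that is no member, was also lowest in NZO at 0.176 CPM, against 0.804 to 1.73 CPM in the other strains, so the sum of both copies kept a range of 4.62 log2 units. Intervals and floors here cover counting error only.

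Zfp945 and Zfp960, a pair of KRAB genes on chromosome 17, were lowest in PWK in every library, with counts in each. Zfp945 (22846697 to 22867134, cluster chr17a) ran from 0.923 to 2.11 CPM in PWK, and no library of another strain fell below 6.31. Its order had 3 steps: NZO (median 23.2 CPM), AJ (22.2) and 129 (21.9) on top, B6 (15.2), NOD (13.5) and WSB (12.8) next, then Cast (8.32). Neighbours within each step did not differ, and the steps from 129 to B6 (0.48 log2 units, SE 0.11) and from WSB to Cast (0.51, SE 0.11) did (edgeR adjusted p = 0.0003612 and 0.0001234). PWK lay 2.48 log2 units below Cast (SE 0.13, adjusted p = 1.374e-25).

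Zfp960 (17064113 to 17089628) ran from 0.494 to 1.19 CPM in PWK and from 5.68 to 11.9 CPM in Cast, the highest strain. WSB, from 1.76 to 3.92 CPM, was next to PWK and 2.1 log2 units above it (SE 0.17, edgeR adjusted p = 3.241e-17). The transcript is near-identical to that of Zfp97 and of a noncoding RNA gene, and the split of reads between them is uncertain. Zfp97 was low in both Cast (5.71 CPM) and PWK (4.63 CPM) and between 9.60 and 14.2 CPM elsewhere. Summed over the copies, the range fell from 3.57 to 1.68 log2 units, PWK stayed lowest at 6.49 ± 0.712 CPM (SD, n = 8), and 129 took the top at 20.9 ± 1.53 CPM (SD, n = 8).

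**Figure D1:**
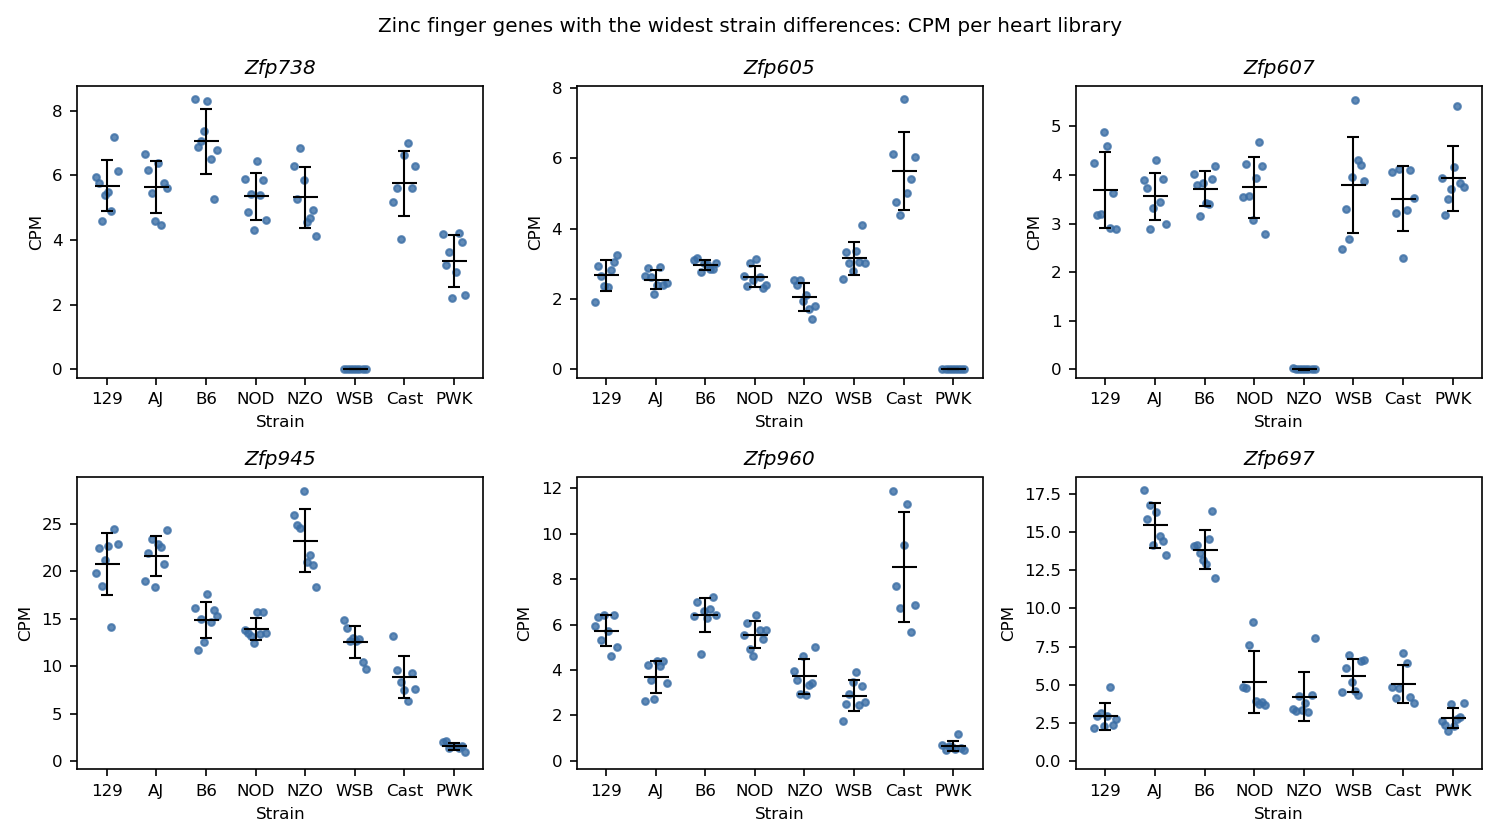
CPM of 6 members (y axis) in each library (points) by strain (x axis), with the strain mean and SD (black lines; n = 7 in Cast and 8 elsewhere). Zfp738 is at 0 in WSB, Zfp605 at 0 in PWK and Zfp607 near 0 in NZO, while Zfp697 separates AJ and B6 from the other 6 strains.

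Other members split the strains into a high and a low set. Zfp697, a gene without a KRAB match that has been linked to the remodelling of skeletal muscle, was high in AJ (13.5 to 17.8 CPM, median 15.3) and B6 (12 to 16.4 CPM, median 13.8). The highest library of any other strain, at 9.08 CPM in NOD, lay below both. B6 exceeded WSB, next in order, by 1.31 log2 units (SE 0.17, edgeR adjusted p = 1.817e-09), and AJ and B6 did not differ beyond their spread (0.16 log2 units, SE 0.16, adjusted p = 0.5013). With the near-identical copy of this gene the range was 2.37 in place of 2.46 log2 units. PWK (median 2.67 CPM) and 129 (median 2.82 CPM) were the lowest.

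Zfp619, the KRAB gene with the most finger matches, was low in 129 and WSB. It ran from 0.88 to 1.67 CPM in 129 and from 0.503 to 1.21 CPM in WSB, while the lowest library of the other 6 strains was at 3.04 CPM in Cast. WSB lay below 129 by 0.62 log2 units (SE 0.14, edgeR adjusted p = 0.0002877). The 6 high strains ran from a median of 3.89 CPM in NZO to 4.52 CPM in NOD, with no difference between neighbours in the order.

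In cluster chr8a, Zfp963 and Zfp868 were high in the same pair of strains, WSB and 129. Zfp963 ran from 7.45 to 10.7 CPM in WSB and from 4.73 to 8.42 CPM in 129, with strain medians of 2.28 to 3.77 CPM elsewhere. Zfp868 ran from 11.4 to 25.7 CPM in WSB and from 12.8 to 16.4 CPM in 129, with medians of 6.03 to 7.38 CPM elsewhere. Against the other strains, WSB was higher by 1.42 log2 units for Zfp963 (SE 0.08, edgeR adjusted p = 3.309e-25) and 1.03 for Zfp868 (SE 0.07, adjusted p = 3.033e-20). The highest value of Zfp868, 25.7 CPM, was that of WSB_1, and without that library the WSB difference was 0.86 log2 units.

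Zfp937, Zfp677 and Zfp934 completed the 10 widest ranges among members with a mean of at least 0 log2 CPM, and all 3 carry a KRAB match. Zfp937, on chromosome 2, was highest in PWK (3.7 to 6.47 CPM) and lowest in WSB (0.725 to 1.34 CPM), and the 2 sets did not overlap. Zfp677, in cluster chr17a, had its highest median in NOD (3.27 CPM) and its lowest in Cast (0.72 CPM), and Cast was lower than the other strains by a log2 difference of -1.41 (SE 0.16, edgeR adjusted p = 7.083e-12). Zfp934, in cluster chr13a, was high in Cast (2.22 to 4.19 CPM) and PWK (1.74 to 3.32 CPM) and low in AJ (0.311 to 0.796 CPM). Summed with its near-identical copies, Zfp934 had a range of 0.80 log2 units in place of 2.42.

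Below that level, Zfp783, Zfp811 and Zfp947 had ranges of over 3 log2 units and were singled out after their values were seen, and Zfp708, taken up below with its copy, had one too. The pseudogene Zfp783 had 2 counts over the 7 Cast libraries, 66.8-fold fewer than the average elsewhere (95% exact Poisson interval 18.5 to 551), and was also low in PWK (0.0646 ± 0.0510 CPM, SD, n = 8). Zfp811 averaged 2.31 ± 0.606 CPM (SD, n = 8) in PWK and 0.177 ± 0.113 CPM (SD, n = 8) in B6. Zfp947 averaged 0.108 ± 0.0785 CPM (SD, n = 8) in PWK, against strain means of 0.437 to 1.28 CPM elsewhere. There were 9 members, 6.87%, with a strain whose every library lay above or below all other libraries, against 9.17% of all genes. They were Zfp738 and Zfp651 (lowest in WSB), Zfp605 (highest in Cast and lowest in PWK), Zfp607 and Zfp691 (lowest in NZO), Zfp945 and Zfp960 (lowest in PWK), and Zfp709 and Zfp641 (highest in Cast).

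The strains differed in which direction their members leaned. Against the mean of the other 7 strains, 42 members were higher in B6 and 10 lower, while 17.5% of all tested genes were higher and 14.7% lower. The opposite lean was found in AJ, with 15 members higher and 42 lower (20.6% and 17.9% of all genes), and in NZO, with 17 higher and 37 lower (22.1% and 18.5%). The 208 other Zfp genes leaned likewise, with 50 higher and 16 lower in B6, 22 and 55 in AJ, and 24 and 71 in NZO. The median log2 difference of the members was 0.09 in B6, -0.10 in AJ and -0.08 in NZO, while that of all genes was within 0.01 in these strains. These contrasts share samples, and the shift of a median is small beside the differences of single genes.

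In Cast, 51 members were higher and 29 lower (30.6% and 29.3% of all genes), in PWK 45 and 33 (27% and 26.7%), and in NOD 31 and 14 (19% and 13.5%). In WSB 28 members were higher and 24 lower (25.1% and 19.9%), and in 129 25 and 20 (16.8% and 14.4%). Without Cast_1, Cast_5 and Cast_6, 36 members were higher in Cast. B6 had the highest mean of the 8 strains for 25 members and the lowest for 3, and AJ the highest for 5 and the lowest for 25. Over all genes B6 was highest for 9.11% and lowest for 8.93%, and AJ for 10.6% and 9.79%, against 19.1% and 2.29% of members in B6 and 3.82% and 19.1% in AJ. Cast was highest for 31 members (23.7%, against 22.4% of all genes) and lowest for 17 (13%, against 22.9%). PWK was highest for 28 (21.4%, against 17.6%) and lowest for 26 (19.8%, against 17.5%). Members with no or almost no counts in 1 strain count as higher in the others, and without those 4 members the counts were 38 higher in B6, 11 in AJ and 14 in NZO, an alternative chosen after the data were seen. B6 is also the reference strain, and the part that reads lost to sequence variants in the other strains play in its lean was not tested.

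**Figure D2:**
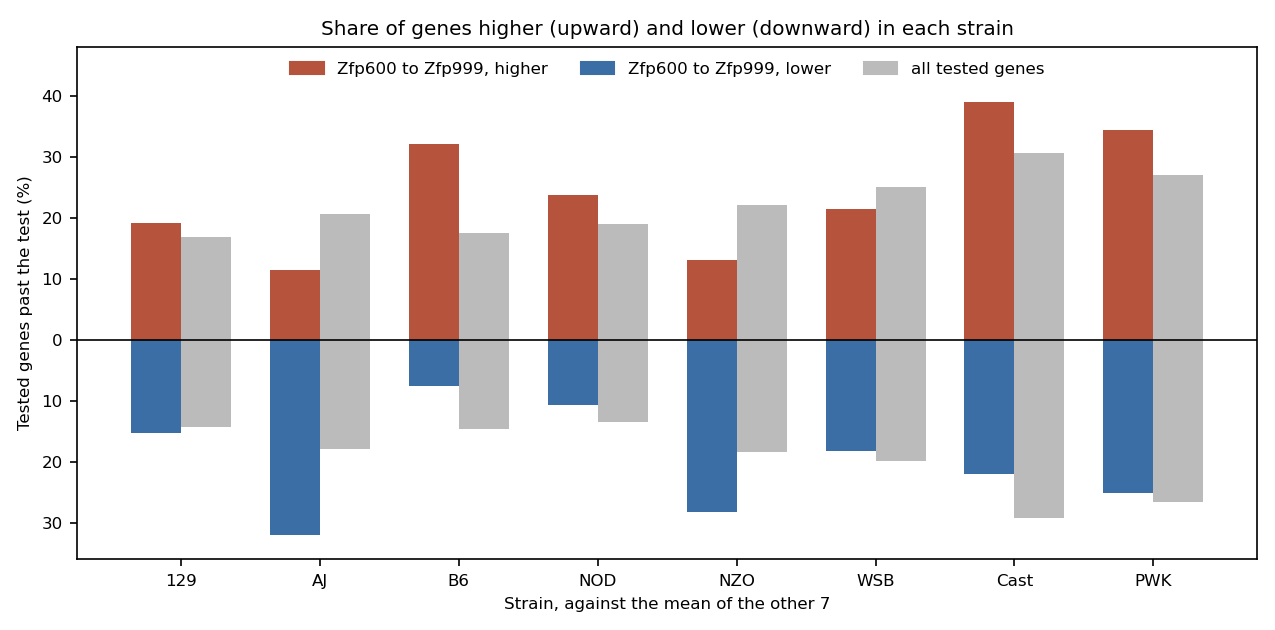
Share of tested genes past the test (y axis, %) that were higher (upward) or lower (downward) in each strain than in the mean of the other 7 (x axis), for the members (coloured) and for all 16425 tested genes (grey). B6 shows 42 members higher and 10 lower, and AJ 15 higher and 42 lower.

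Between pairs of strains a median of 58.5 members (44.7%) differed, against 42.4% of all genes over the 28 pairs. B6 and NOD differed least, in 27 members, against 24.2% of all genes. The pairs Cast and NZO, and NZO and PWK, differed most, with 74 members each, against 56.6% and 51.8% of all genes. NZO and NOD differed in 47 members (35.9%), while 25.1% of all genes differed between them.

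The KRAB class had a lower median level and a wider median strain range than the members without a KRAB match. Its range was close to that of all genes. The 84 tested members with a KRAB match had a median level of 1.99 log2 CPM and a median range of strain means of 0.83 log2 CPM, and 32 of them passed the test with a range of 1 log2 unit or more. The 45 without a match had a median level of 3.67 and a median range of 0.46, and 5 passed with such a range. These are 38.1% of the KRAB class and 11.1% of the others, against 37.9% of all tested genes, whose median range was 0.78. The classes differ in level, so members of like level were also set side by side. At a mean of 2 to 4 log2 CPM the median range was 0.74 in 36 KRAB members and 0.43 in 19 others, with a median adjusted R2 for strain of 0.573 and 0.275. At 0 to 2 log2 CPM it was 0.88 in 35 KRAB members and 0.56 in only 4 others. Members of 1 cluster may share ancestry, which was not assessed here, and so may not be independent. No test was made of these values.

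**Figure D3:**
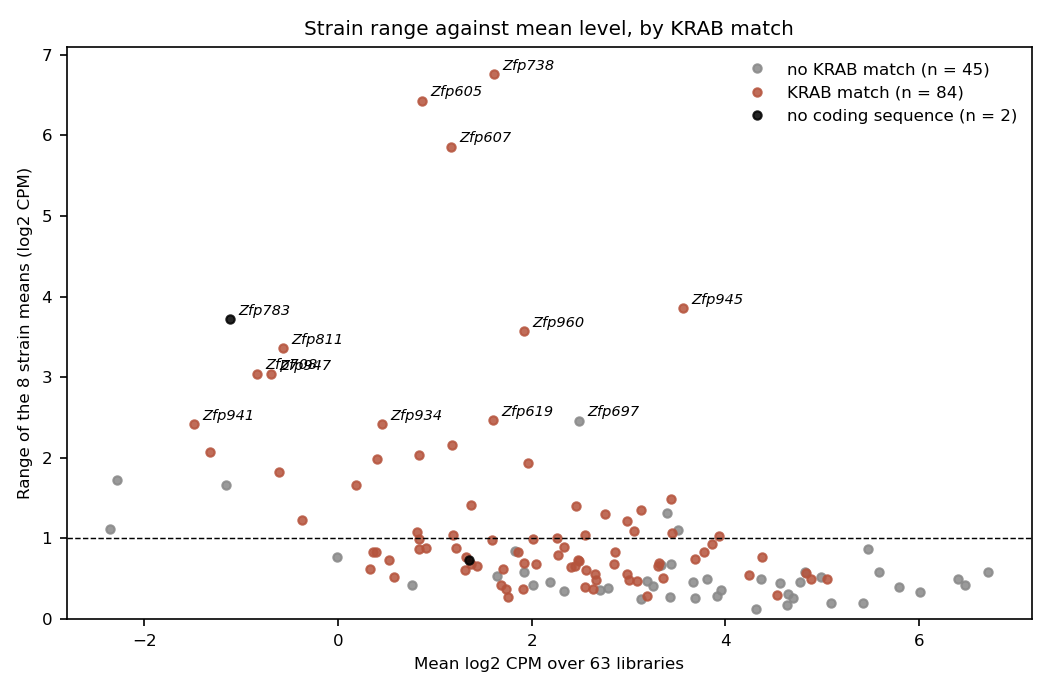
Range of the 8 strain means (y axis, log2 CPM) against the mean level over 63 libraries (x axis, log2 CPM) for the 131 tested members, by KRAB match. The dashed line marks a range of 1 log2 unit, and 32 KRAB members and 5 others that passed the test lie above it.

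Members of a cluster did not share a strain pattern as a rule. The correlation of the 8 strain means had a median of 0.080 over the 185 pairs of members in the same cluster and 0.073 over the 8330 other pairs, and exceeded 0.5 in 20% and 15.9% of them. Within strains, the median correlation over libraries was 0.110 in the same cluster and 0.034 in the others, where all pairs share the libraries and their depth. These correlations are descriptions, and neighbouring pairs are not independent.

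Single clusters showed how the strain patterns of their members differed. In cluster chr13b, 4 of 6 members were highest in B6, where Zfp738 and Zfp953 had means of 7.06 ± 0.999 and 2.52 ± 0.615 CPM (SD, n = 8), and of the 6 only Zfp738 had no count in any WSB library. In cluster chr17a, the largest, all 11 members passed the test, 4 were lowest in PWK, and 6 strains were each the highest for at least 1 member. In cluster chr13a, the summed level was highest in PWK (9.995 ± 1.87 CPM, SD, n = 8) and Cast (9.37 ± 1.42 CPM, SD, n = 7) and lowest in NZO (5.08 ± 1.03 CPM, SD, n = 8). There Zfp935 was highest in PWK, at 3.76 ± 0.894 CPM (SD, n = 8) against strain means of 1.80 to 2.39 CPM elsewhere.

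In cluster chr8b, Zfp709 and Zfp882 were both highest in Cast. Zfp709 ran from 9.04 to 12.3 CPM in Cast, above every other library (at most 7.14), and was higher there by 1.05 log2 units (SE 0.08, edgeR adjusted p = 2.562e-17). Zfp882 ran from 3.48 to 6.02 CPM in Cast and from 1.4 to 1.82 CPM in AJ, its lowest strain. Their neighbour Zfp617, whose exons overlap those of Zfp882 by 104 bases, had a range of 0.30 log2 units.

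Further named members of clusters chr17b, chr9a and chr7b had ranges of about 1 log2 unit or less. The widest of each cluster were Zfp811 of chr17b (3.36 log2 units), Zfp809 of chr9a (1.36) and the scarce Zfp773 of chr7b (2.07). Zfp799 was lowest in NZO (7.01 to 11.6 CPM) and had medians of 15.4 to 18.1 CPM in AJ, B6, Cast, NOD and PWK. Zfp870 was highest in WSB (median 9.54 CPM) and lowest in Cast (4.62 to 5.72 CPM). Zfp810 was lowest in WSB, by a log2 difference of -0.44 (SE 0.09, edgeR adjusted p = 3.096e-05), and had its highest medians in PWK (6.66 CPM) and NOD (6.52 CPM). Zfp667, first described as a gene induced in ischaemic heart muscle, was highest in PWK (6.56 to 8.99 CPM) by 0.72 log2 units (SE 0.09, adjusted p = 6.798e-11), with medians of 3.54 to 5.9 CPM elsewhere. Zfp772 ranged from a median of 1.41 CPM in 129 to 2.53 CPM in PWK.

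Clusters chr7a, chr7d and chr7e held no member with a wide range. None of the 3 members of chr7a, the 3 of chr7d or the 9 of chr7e had a range of 1 log2 unit, although each of them passed the test. Zfp628 and Zfp784 in chr7a had their highest strain means in 129 (7.42 ± 0.537 and 5.27 ± 0.675 CPM, SD, n = 8), and 94.8% of the exon length of Zfp784 overlaps Zfp865 on the other strand, so their reads cannot be told apart without strand. Zfp771 and Zfp764 in chr7e had ranges of 0.85 and 0.66, Zfp715 and Zfp658 in chr7d 0.57 and 0.87, and Zfp623 and Zfp707 in chr15a 0.38 and 0.43 log2 units, while the scarce remaining member of chr15a, Zfp647, had 1.83. WSB_1 held the highest value of Zfp715 (54.8 CPM), Zfp658 (4.85), Zfp764 (4.85) and Zfp707 (8.23). Without WSB_1 the WSB difference of Zfp715 fell from 0.40 to 0.29 log2 units and kept passing the test. Zfp850 in chr7c and Zfp775 in chr6a were highest in Cast (medians 1.79 and 13.8 CPM), and Zfp956 in chr6a did not pass the test over strains (adjusted p = 0.275).

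**Figure D4:**
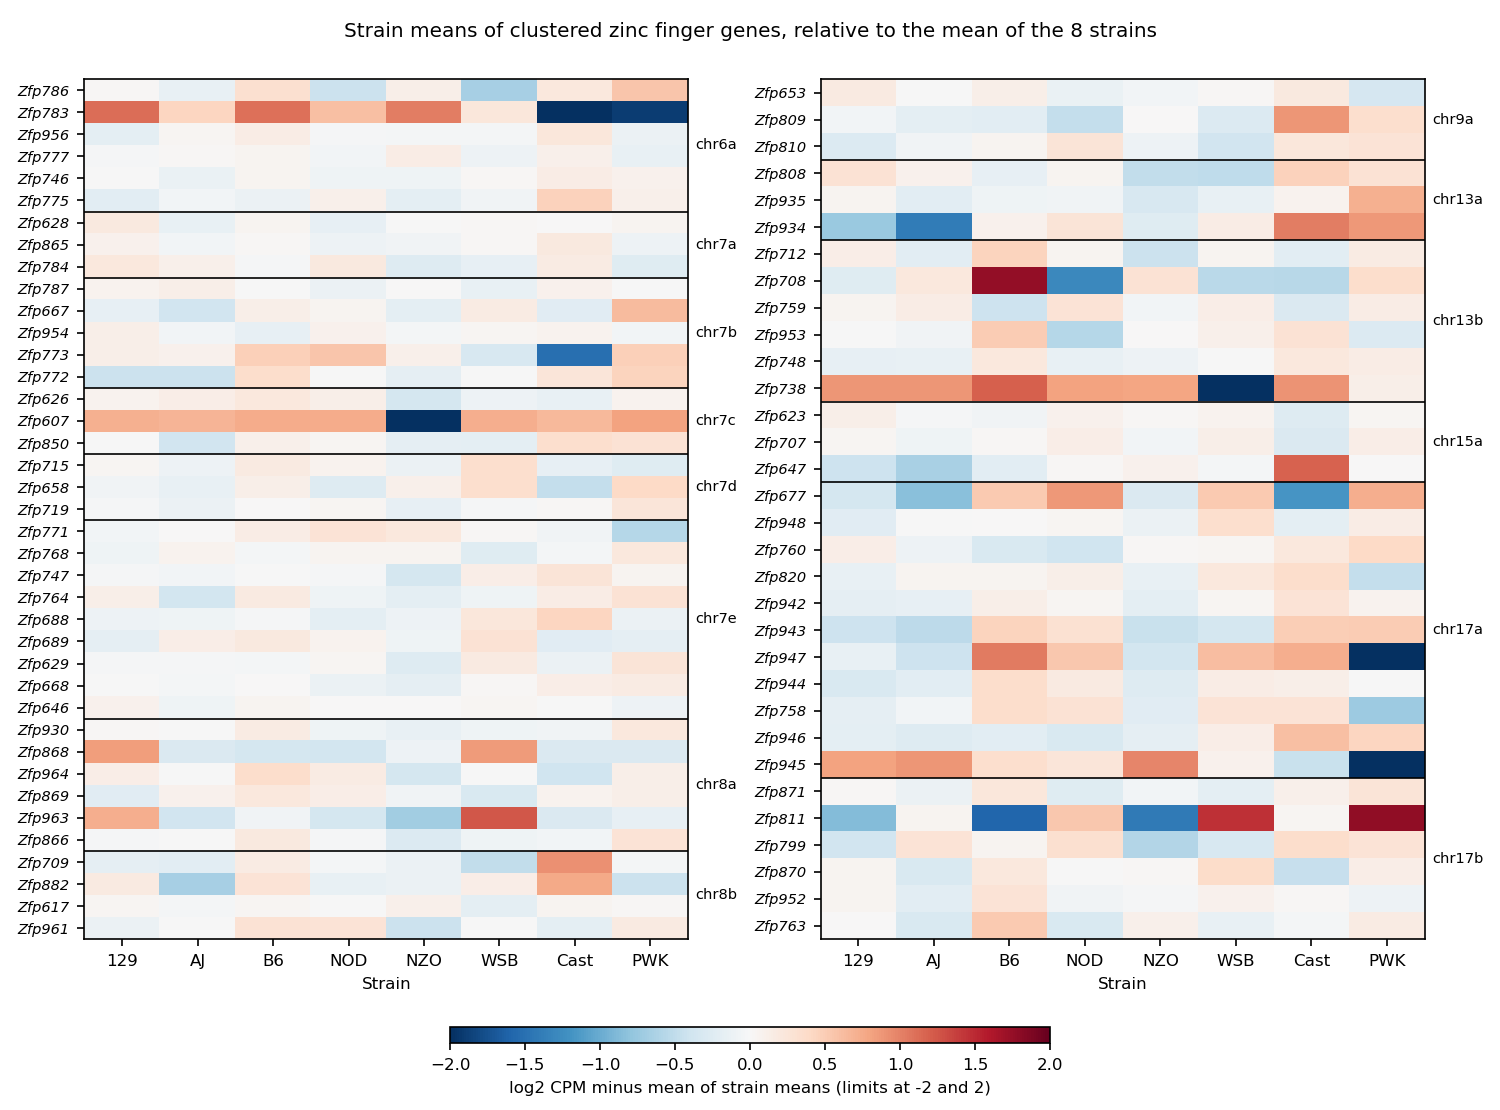
Strain means of log2 CPM of the 71 members in the 14 clusters (rows, in chromosome order) by strain (columns), relative to the mean of the 8 strains of each gene. Colours stop at -2 and 2 log2 units, and the darkest cells mark Zfp738 in WSB, Zfp607 in NZO, Zfp783 in Cast and PWK, and Zfp945 and Zfp947 in PWK.

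Reads that fit near-identical genes alike can be split in different ways by a counter, so the members with such copies were also summed with them. At least 1 copy in the table, with transcripts at least 95% identical over at least 50% of the shorter, was found for 19 members. For Zfp652, Zfp708 and Zfp865 the only such gene overlaps the member's own exons, and so is not a separate copy elsewhere. For Zfp708, which binds and helps to silence a retrotransposon family, the range fell from 3.05 log2 units alone to 0.94 with its read-through partner, which holds 96.4% of its exon length. Alone, Zfp708 was highest in B6 (1.3 to 3.0 CPM), where 129, Cast, NOD, PWK and WSB each had at least 1 library at 0. Summed, it was still highest in B6, at 4.095 ± 0.747 CPM (SD, n = 8), against 2.10 to 2.82 CPM in the other strains. For Zfp931, with 20 copies, the range rose from 0.74 to 2.33 log2 units. The sum reached 374 ± 90.8 CPM (SD, n = 7) in Cast, against 73.8 ± 11.6 CPM (SD, n = 8) in WSB. Most of that sum came from the copies: Zfp931 alone had strain means of 2.05 (PWK) to 2.79 log2 CPM (Cast). Its copies Gm14327 and Gm14391 averaged 115.8 and 63.8 CPM in Cast. Zfp652 shares transcript sequence with the phosphatase gene Phospho1 that it overlaps, and their sum no longer differed among strains (edgeR adjusted p = 0.4243).

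**Figure D5:**
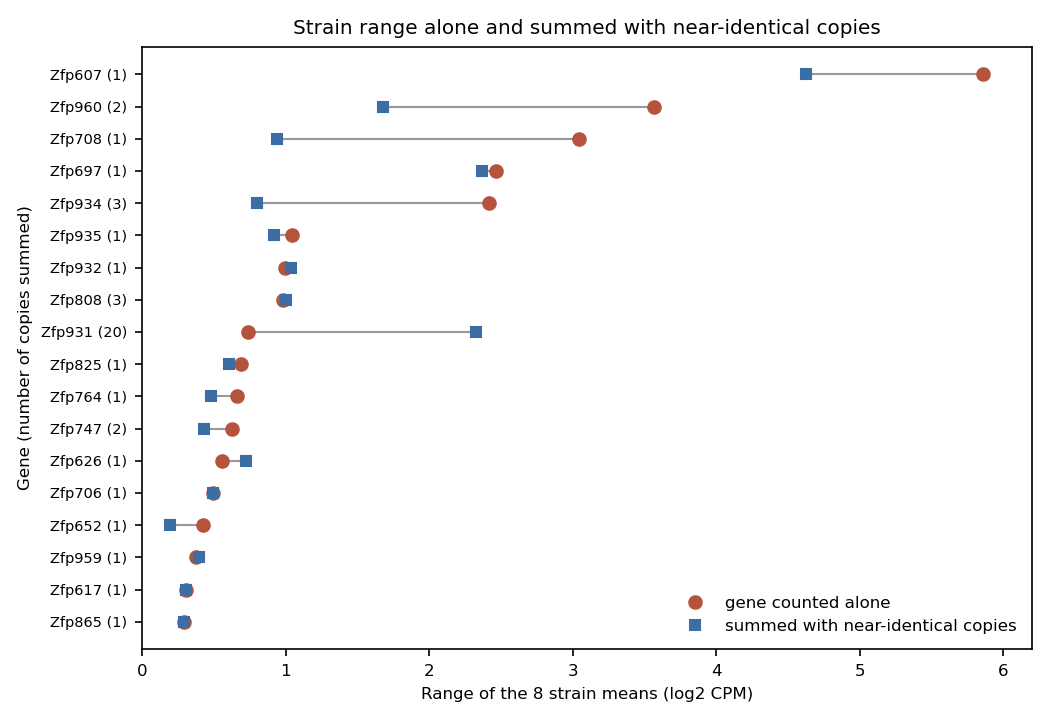
Range of the 8 strain means (x axis, log2 CPM) of each tested member with near-identical copies (y axis, number of copies in brackets), counted alone (circles) and summed with its copies (squares). For Zfp652, Zfp708 and Zfp865 the gene summed is one that overlaps the member. The range shrinks most for Zfp708, Zfp960 and Zfp934 and widens most for Zfp931.

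A few members have a described role and were taken up by name. Zfp809, a KRAB gene of cluster chr9a that starts the silencing of endogenous retroviruses, was highest in Cast. It ran from 10.5 to 24.8 CPM there (median 16.2), from 9.83 to 12.7 CPM in PWK (median 11.2) and from 4.25 to 7.22 CPM in NOD (median 6.64), its lowest strain. Cast was higher than the other strains by 1.04 log2 units (SE 0.09, edgeR adjusted p = 3.991e-16), and by 0.78 without Cast_1, Cast_5 and Cast_6.

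Zfp932, which also represses retroviral elements, was highest in B6 (5.2 to 7.2 CPM), 0.73 log2 units above the other strains (SE 0.08, edgeR adjusted p = 4.931e-11). Its near-identical copy Gm15446 was highest in WSB at 7.13 CPM, and their sum was highest in WSB at 11.9 ± 1.63 CPM (SD, n = 8), with B6 next at 10.6 ± 0.889 CPM (SD, n = 8). The strain at the top thus turned on whether the copies were counted apart.

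Zfp746, the Parkin substrate PARIS that represses Ppargc1a, varied little, from a mean of 9.81 ± 0.616 CPM (SD, n = 8) in AJ to 12 ± 1.76 CPM (SD, n = 7) in Cast. Zfp703, a corepressor of the NET family, was highest in 129 (12.8 to 18.1 CPM) and lowest in Cast, where it was lower by a log2 difference of -0.67 (SE 0.08, edgeR adjusted p = 1.112e-10), or -0.92 without the 3 Cast libraries named above. Zfp711, an X-linked gene whose human counterpart is linked to intellectual disability, was scarce, from 0.192 ± 0.0670 CPM (SD, n = 8) in PWK to 0.770 ± 0.267 CPM (SD, n = 8) in B6. Zfp750, a regulator of epidermal differentiation, was near the limit of detection everywhere and highest in NOD at 0.414 ± 0.176 CPM (SD, n = 8).

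Per kb of exon length, the most abundant members were Zfp706 (17.2 CPM per kb), Zfp651 (15), Zfp768 (10.9), Zfp740 (8.45) and Zfp617 (7.69). Of these 5, Zfp617 alone has a KRAB match. Zfp706, a small protein tied to stem cell self-renewal, was highest in 129 (96.2 to 120 CPM) and lowest in AJ (70.0 to 75.5 CPM), and the 2 strains did not overlap. Zfp651, a protein with a BTB domain, was lowest in WSB, where 7 libraries ran from 80.0 to 84.8 CPM and WSB_1 was at 61.0, against at least 87.7 CPM in every other library. Zfp768 was highest in PWK (28.1 to 35.7 CPM) by 0.24 log2 units (SE 0.05, edgeR adjusted p = 5.523e-05).

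The narrowest ranges among well-expressed members were those of Zfp639 (0.12 log2 units), Zfp646 (0.18) and Zfp740 (0.20). Strain means of Zfp639 lay between 19.1 ± 1.15 CPM (SD, n = 8) in AJ and 20.9 ± 1.29 CPM (SD, n = 8) in NZO, and it did not pass the test over strains (edgeR adjusted p = 0.5446). The other members that did not pass were Zfp831, Zfp871, Zfp954 and Zfp956. A p that misses the threshold does not show that the strains are alike in these genes.

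The corepressors that KRAB proteins work through nearly all differed among strains, a few of them by a wide range. Their list was chosen with earlier results of these data known. The list held 32 symbols, and 31 of them stood in the table. Of these 31 genes, 30 differed among strains, against 89.4% of all genes. In 3 the strain means spanned 1 log2 unit or more, against 37.9% of all genes and 29% of the members. No test compared the lists. These were the histone methyltransferase gene Suv39h2, Uhrf1, which maintains DNA methylation, and the DNA methyltransferase gene Dnmt3b, with ranges of 1.56, 1.45 and 1.12 log2 units and mean levels of 1.14, 2.11 and 1.55 CPM. Uhrf1 was highest in WSB, at 3.74 ± 1.16 CPM (SD, n = 8), and lowest in AJ, at 1.29 ± 0.26 CPM (SD, n = 8). A single NOD library reached 12.8 CPM for Uhrf1, against a mean over that strain of 2.85 ± 4.06 CPM (SD, n = 8). Trim28 itself ran from 41.9 ± 3.84 CPM (SD, n = 8) in NZO to 55.2 ± 4.73 CPM (SD, n = 8) in 129, a range of 0.40 log2 units. Setdb1 was lowest in NOD, at 15 ± 0.985 CPM (SD, n = 8), and highest in WSB, at 26.4 ± 3.27 CPM (SD, n = 8). Trim24 was highest in Cast at 48.5 ± 7.77 CPM (SD, n = 7), against strain means of 26.9 to 32.3 CPM elsewhere, and Cbx5, which encodes a heterochromatin protein, in PWK at 152 ± 9.48 CPM (SD, n = 8).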

How the data were processed

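Polyadenylated RNA of frozen, pulverised hearts was sequenced with ERCC spike-ins, per the labels' protocols. The authors deposited estimated counts per gene, not normalised, of which 18.4% are not whole within 1e-06, on GRCm38 per the submitters' processing notes, which also name DESeq2. They also deposited variance-stabilised log2 values, used here as an alternative only. For the aligner, the counter, its use of strand and the handling of strain sequences, the sources used here give nothing. Gene positions are from the deposited annotation.

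Rounded counts were fitted with edgeR 4.0.16 under R 4.3.3 (filterByExpr, minimum count 10, keeping 16425 genes; TMM; quasi-likelihood fit, 1 coefficient per strain, 55 residual degrees of freedom). In each contrast 1 strain stood against the other 7, weighted equally, and 28 pairs were tested. Adjusted p-values are Benjamini-Hochberg over all tested genes, with a threshold of 0.05. CPM is on the TMM scale, and log2 CPM uses a prior count of 2. In simulated Cast contrasts (16187 genes), 67.7% of changes of 0.5 log2 units and 83.7% of changes of 1 unit were recovered, with 7 false calls among 15990 genes. The simulated counts were drawn independently from the fitted dispersions, with equal strain means in unchanged genes. They therefore do not show how many false calls arise where many genes of a library deviate together, as in WSB_1.

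KRAB and C2H2 patterns were sought in GENCODE M21 coding sequence, and copies with BLAST 2.17.0. The members, lists and the naming rule were chosen with earlier results of these data known. The rule named the 10 members with the widest range, the 5 most abundant per kb, per strain the strongest without overlap, the 2 widest per cluster (all at a mean log2 CPM of at least 0), the 3 narrowest and 8 genes by name, and at most 6 corepressors, by range, with a range of at least 0.5. Alternatives were other scaling, filters, tests (DESeq2 1.42.0; limma 3.58.1), references and cluster gaps, left-out libraries, summed copies and a replicate block.

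Each library is a sample of its labelled strain, and no 2 libraries held identical values. Strand matters for overlapping genes, and a read shared by near-identical copies may have been split between them. Both are marked for some results and not for all. Zfp935 and Zfp963 overlap genes on the same strand that are not in the table, over 98.5% and 40.8% of their exon length. Zfp935 and Zfp764 also have a near-identical copy in the table.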

Additional observations from a re-analysis of the deposited data

Results flagged for a closer look

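Over the 46 named genes, 365 groups of a gene and a strain were checked for a library far from the others of its strain, and 40 values stood apart. Chance gives about 1 in 20 such groups. Over all, 22 libraries held at least 1 of these values, WSB_1 held 10 of them, and the fits without libraries left out WSB_1, AJ_3 and 3 Cast libraries only.

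WSB_1 was high for Zfp868 (25.7 CPM, the other WSB libraries 11.4 to 14.8), Zfp715 (54.8, others 29.1 to 38.4) and Zfp707 (8.23, others 2.1 to 3.66). It was also high for Zfp658 (4.85 CPM, others 1.41 to 2.41), Zfp764 (4.85, others 1.87 to 2.68) and Zfp956 (2.98, others 1.11 to 1.67). The same library was low for Zfp651 (61.0 CPM, others 80.0 to 84.8), Zfp706 (59.6, others 78.0 to 87.8), Zfp799 (5.52, others 11.5 to 14.2) and the retroviral silencer gene Zfp809 (3.82, others 7.25 to 9.25).

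Among the genes with the widest ranges, single libraries were high for Zfp697 in 129_7 (4.87 CPM) and NZO_8 (8.09), Zfp937 in AJ_5 (2.52), Zfp607 in PWK_6 (5.42), Zfp619 in B6_4 (5.83) and Zfp960 in PWK_6 (1.19). Zfp960 was low in B6_3 (4.71 CPM). Zfp934 was low in B6_6 (0.595 CPM) and high in Cast_6 (4.19) and NZO_4 (1.66), and Zfp935, its neighbour, was high in NZO_2 (2.96). Zfp708 was at 0.0 CPM in PWK_9, against 0.648 to 1.22 in the other PWK libraries.

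Among other named genes, the high values were those of Zfp639 in 129_9 (24.3 CPM), Zfp715 in 129_7 (35.3), Zfp768 in NOD_6 (34.1), Zfp646 in Cast_1 (29.3), Zfp868 in 129_3 (16.4) and AJ_3 (7.75), Zfp706 in 129_3 (120), Zfp707 in NZO_4 (4.07) and Zfp711 in AJ_5 (0.522). Zfp750, which was close to 0 in most libraries, was high in B6_5 (0.51 CPM), Cast_6 (0.294) and PWK_5 (0.299). The low values were those of Zfp784 in NOD_3 (3.99 CPM), Zfp764 in PWK_5 (2.47), Zfp882 in PWK_5 (1.33), Zfp617 in NOD_7 (21), Zfp706 in PWK_2 (89.3) and Zfp870 in 129_9 (6.23).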

How the results depend on the processing

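The number of members that differed among strains lay between 101 and 127 over the alternatives, the lower figure with fewer genes tested. The number with strain means spanning at least 1 log2 unit was 38, but 8 by limma on the variance-stabilised values, where the cause was not tested, and 23 where a mean of at least 1 log2 CPM was required and 104 members were tested. With B6 as the reference in place of the other 7 strains, 13 members were higher in 129, 7 in AJ, 29 in Cast, 7 in NOD, 8 in NZO, 25 in PWK and 14 in WSB. The other 229 counts stayed within 1.5 times their value, and the clusters numbered 13 at a gap of 0.5 Mb and 14 at 2 Mb. Of the values of single genes, 1011 kept their side of the threshold, 18 lost the call, 2 gained it and none reversed. Zfp707 and Zfp646 lay nearest the threshold. Without WSB_1 126 members differed among strains, without AJ_3 122, and without Cast_1, Cast_5 and Cast_6 124. Over 199 pairs of libraries with the same replicate number in different strains, the median correlation of deviations was 0.049, and 40 exceeded 0.1. Over 1537 pairs with different numbers in different strains the median was -0.0096. No test was made of this difference, so a weak link by replicate number stays possible. With a replicate block 123 members differed, 38 with a range of at least 1 log2 unit, and Zfp646 (edgeR adjusted p = 0.0675) and Zfp707 (0.0546) were the named genes that lost their call. Counting error limits what can be said of members below 1 CPM, where zero counts in a strain set only an upper bound.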

Other observations

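The deposited table uses older symbols for 25 genes that GENCODE M21 names Zfp600 to Zfp999, 11 of them on chromosome 4. They are not members, and they were looked at after the data were seen. Of the 24 that were tested, 23 differed among strains by edgeR's quasi-likelihood test, 20 with a range of strain means of at least 1 log2 unit and 15 of at least 2. Their median range was 3.64 log2 units, against 0.69 in the members. Many have near-identical copies in the genome, so the split of reads between them is uncertain, and its part in these ranges was not tested.

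Zfp982 had means of 8.62 ± 1.28 CPM (SD, n = 8) in AJ and 9 ± 0.920 CPM (SD, n = 8) in B6, and of at most 0.417 CPM in the other 6 strains. Zfp990 showed the reverse of that split: AJ and B6 averaged 0.0115 and 0.0240 CPM, the other strains 1.11 to 6.31 CPM. Zfp979 was scarce in Cast (0.0811 CPM) and NZO (0.215 CPM) and reached 15.6 ± 3.47 CPM (SD, n = 8) in NOD. On chromosome 2, Zfp973 averaged 0.456 ± 0.147 CPM (SD, n = 8) in WSB and 26.4 ± 1.73 CPM (SD, n = 8) in PWK. Zfp970 averaged 827 ± 274 CPM (SD, n = 7) in Cast, against 34.1 to 138 CPM in the other strains. A count of members by symbol thus leaves out those genes of this number range whose strain differences were among the widest. The shares of members with a wide range are therefore those of the deposited symbols only.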
